A study of Mus musculus with 8 samples.

Results

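The genes described here encode the machinery that presents peptides on major histocompatibility complex (MHC) class I and class II molecules, measured in the posterior capsule of the mouse knee joint with and without 2 weeks in a cast. They were chosen by symbol: every row whose name begins with H2- followed by a capital letter, with B2m, Tap1, Tap2, Tapbp, Psmb8, Psmb9, Psmb10, Nlrc5, Ciita, Cd74 and Ctss. The rule found 41 of the 16464 genes in the table, of which 28 belong to class I and 12 to class II. The remaining gene, H2-Ke6, lies in the same region and encodes a dehydrogenase, so it was kept apart from both classes. Of the 41 genes, 38 had a mean normalised read count of at least 0.5 and were tested, 26 of class I, 11 of class II and H2-Ke6. H2-M2, H2-M10.2 and H2-Eb2 were below that level.

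MHC class I molecules, a heavy chain paired with beta-2 microglobulin, display peptides from inside the cell to CD8 T cells and are made by nearly all nucleated cells. The proteasome cuts these peptides, and TAP carries them into the endoplasmic reticulum for loading. MHC class II molecules, an alpha and a beta chain, display peptides taken up from outside to CD4 T cells, and are made mainly by macrophages, dendritic cells and B cells. The invariant chain CD74 blocks the class II groove until cathepsin S degrades it, and H2-DM then exchanges the last fragment for a peptide. The transactivators NLRC5 and CIITA switch on the class I and the class II genes, respectively.

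All 8 samples were total RNA from whole posterior capsules of male wild-type C57BL/6 mice aged 10 weeks. For 4 samples a cast had immobilised the knee at an angle of 140 degrees during the preceding 2 weeks, and the other 4 were naive. No further treatment or allele is named for either group. The labels do not say whether the samples came from separate animals, so p-values measure the spread between these samples only. The values are the authors' normalised read counts. Whole reads recovered from them summed to between 5956148 and 7381255 a library in 7 libraries and to 1503880 in naive replicate 4. That library stood apart, with 2264 genes at 0 against 330 to 608 in the others, and its correlation across genes with the other naive libraries was 0.88 to 0.90, against 0.98 among those. Its skeletal muscle genes were also low, at a mean log2 level of 3.06. The remaining naive libraries had 6.84 to 7.65 and the cast libraries 1.16 to 4.48. The class results and the genes described in full are therefore also given without it. Capsule fibroblast markers (Col1a1, Dcn, Lum and others) had mean log2 levels of 10.8 to 12.0 in all 8 libraries, although Lum rose (31.7 to 440 in the naive and 1421 to 1976 in the cast libraries, adjusted p = 0.0157 by limma). Prg4, which encodes lubricin, did not pass with all 8 libraries (adjusted p = 0.0706) and fell by 1.46 on the log2 scale without naive replicate 4 (adjusted p = 0.0178). In such bulk tissue fewer cells of a type and less RNA per cell cannot be told apart.

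Most of these genes sit together on chromosome 17, and several of their promoters carry the box sequences through which class I and class II genes are known to be controlled. In GRCm38, H2-Aa lies at chr17:34282744-34287823 on the minus strand, H2-Ab1 at chr17:34257689-34269419 and H2-Eb1 at chr17:34305867-34316674 on the plus strand. The class I genes H2-K1 and H2-D1 flank the class II genes at chr17:33996017-34000347 on the minus strand and chr17:35262730-35267499 on the plus strand. B2m is on chromosome 2, Ctss on 3, Ciita on 16, Nlrc5 and Psmb10 on 8, and Cd74 on 18. RefSeq promoters, from 250 bases before to 50 bases after a start site (GRCm38.p6), were matched for 28 of the 41 genes. The stretches shown are those of 3 class II genes described below, H2-Aa, H2-Eb1 and H2-Oa, of the exchange genes H2-DMb1 and H2-Ob, and of the main class I genes, written 5′ to 3′ on the strand of the gene. Capitals mark the Y box ATTGG, known to bind NF-Y, the X1 box core CCNNGNNAC, known to bind the RFX complex, the NF-kB site core (GGG, 2 free bases, TT, 1 free base, CC) and the interferon response element core (TTTC, 2 free bases, TTTC), each searched on both strands. The second capitals of H2-Eb1 are a Y box read on the other strand, the last capitals of H2-Oa hold the NF-kB core after its Y box, and the first capitals of B2m are the interferon core read on the other strand.
H2-Aa (chr17:34287854-34287963, minus strand): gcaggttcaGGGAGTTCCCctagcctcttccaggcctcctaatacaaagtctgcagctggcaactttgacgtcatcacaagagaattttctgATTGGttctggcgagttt
H2-Eb1 (chr17:34305757-34305846, plus strand): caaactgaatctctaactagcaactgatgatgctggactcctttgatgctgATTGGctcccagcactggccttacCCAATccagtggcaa
H2-Oa (chr17:34092279-34092368, plus strand): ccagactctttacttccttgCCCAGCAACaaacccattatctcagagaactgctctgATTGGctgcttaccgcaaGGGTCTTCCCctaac
H2-DMb1 (chr17:34153081-34153150, plus strand): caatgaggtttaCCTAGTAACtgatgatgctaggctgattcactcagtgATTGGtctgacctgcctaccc
H2-Ob (chr17:34238795-34238864, plus strand): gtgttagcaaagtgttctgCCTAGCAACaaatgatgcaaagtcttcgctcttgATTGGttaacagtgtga
H2-D1 (chr17:35262914-35263033, plus strand): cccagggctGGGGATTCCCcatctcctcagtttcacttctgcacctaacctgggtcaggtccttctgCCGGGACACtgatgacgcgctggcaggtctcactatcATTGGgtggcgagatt
H2-K1 (chr17:34000348-34000472, minus strand): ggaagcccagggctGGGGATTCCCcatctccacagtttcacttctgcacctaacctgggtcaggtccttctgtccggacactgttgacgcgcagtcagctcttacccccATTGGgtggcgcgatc
B2m (chr2:122147537-122147646, plus strand): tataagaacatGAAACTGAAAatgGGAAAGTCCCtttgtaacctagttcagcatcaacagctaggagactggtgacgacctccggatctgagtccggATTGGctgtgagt

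The letters of the Y box were found in the promoters of 15 of 18 class I and 8 of 9 class II genes, against 37.4% of all 32851 promoters. The X1 core was found in 15 of 18 and 7 of 9, against 47.4% of all. An X1 core followed by a Y box on the gene's strand, with starts 34 to 37 bases apart, was found in 5 of 18 class I genes (H2-D1, H2-Q4, H2-Q6, H2-Q7 and H2-M3) and 3 of 9 class II genes (H2-Oa, H2-DMb1 and H2-Ob), against 0.143% of all promoters. That window of distances was chosen after the members' distances were seen. The NF-kB core was found in 6 of 18 class I and 2 of 9 class II genes, against 4.79%, and the interferon response element core in 3 of 18 and 1 of 9, against 3.44%. These are matches of letters and not measured binding. H2-Oa, which rose in cast capsules, and H2-Ob, which did not pass the test, both carry the spaced X1 and Y boxes. The part of these boxes in the difference between cast and naive capsules was not tested.

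Of the 11 class II genes tested, 3 rose in cast capsules and none fell. H2-Aa, the alpha chain of the I-A molecule, rose 2.03-fold, the peptide-exchange regulator H2-Oa 1.99-fold and Ctss, the protease that cuts the invariant chain, 1.84-fold, each on the log2(value + 1) scale (limma, adjusted p at most 0.05). H2-Oa had a naive mean of 0.28 and passed the 0.5 level for testing only through the cast libraries. Its place in the class II counts and median given here therefore depended on its being high in cast capsules. With the level set at 2.5, H2-Oa was not tested, Ctss and H2-Aa were still called and the class II median was 0.59. Among all 15120 genes tested, 6.51% were called higher and 5.46% lower. Fitted differences were positive in 10 of the 11 genes, with a median of 0.62 on the log2 scale, against 0.07 over all genes, of which 55.7% were positive. H2-Ab1 and H2-Eb1 also passed without naive replicate 4, 5 of 11 in all, with a median of 0.80. Leaving out naive replicate 2, cast replicate 3 or cast replicate 4 left 0 of 11 called. Calls over all 15120 genes also fell in these fits, to 1011, 920 and 1451 in turn, from 1810 with all libraries. The background without naive replicate 4 was 9.15% called higher and the median of all genes was 0.01. Every cast library lay above every naive library for 5 of the 11 genes, H2-Aa, H2-DMb2, H2-Oa, Ctss and Ciita, against 11.1% of all genes tested. Leaving out naive replicate 4 gave these 5 genes again, against 15.5% of all. On the recovered reads of all 8 libraries edgeR called 3 of 11, H2-Aa, H2-Oa and Ctss. DESeq2 called 4, these and Ciita. Of all genes, edgeR called 13.5% and DESeq2 18.2% in either direction.

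The chains that hold the peptide are H2-Aa and H2-Ab1, which form I-A, and H2-Eb1, the I-E beta chain, whose alpha partner H2-Ea is known to be inactive in C57BL/6 mice. H2-Aa was at a normalised read count of 194, 101, 131 and 164 in naive replicates 1 to 4 and at 218, 224, 392 and 379 in cast replicates 1 to 4. All cast libraries were above all naive ones, and cast replicates 1 and 2 were close to the highest naive library. Its log2 difference was 1.02 ± 0.28 (SE), with an adjusted p of 0.0412 by limma, and 1.09 with an adjusted p of 0.0291 without naive replicate 4. The call was lost without naive replicate 2 (adjusted p = 0.113) or 3 (0.104), or without cast replicate 2 (0.0538), 3 (0.122) or 4 (0.1001).

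H2-Ab1 was at 120, 80.3, 83.0 and 169 in the naive libraries and at 112, 162, 211 and 184 in the cast libraries. Naive replicate 4 was above 2 of the cast libraries, and cast replicate 1 was below 2 of the naive ones. The log2 difference was 0.59 ± 0.28 (SE), with an adjusted p of 0.219 by limma, and without naive replicate 4 it was 0.80, with an adjusted p of 0.0402. H2-Eb1 was at 124, 71.8, 80.2 and 160 in the naive and at 112, 167, 284 and 266 in the cast libraries. Here too naive replicate 4 was the highest naive and cast replicate 1 the lowest cast library, and the groups overlapped. The log2 difference was 0.90 ± 0.35 (SE), with an adjusted p of 0.134, and 1.11 with an adjusted p of 0.0449 without naive replicate 4 (limma). The ratio of H2-Aa to H2-Ab1 values was 0.97 in naive replicate 4, 1.26 to 1.62 in naive replicates 1 to 3 and 1.38 to 2.07 in cast capsules.

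**Figure D1:**
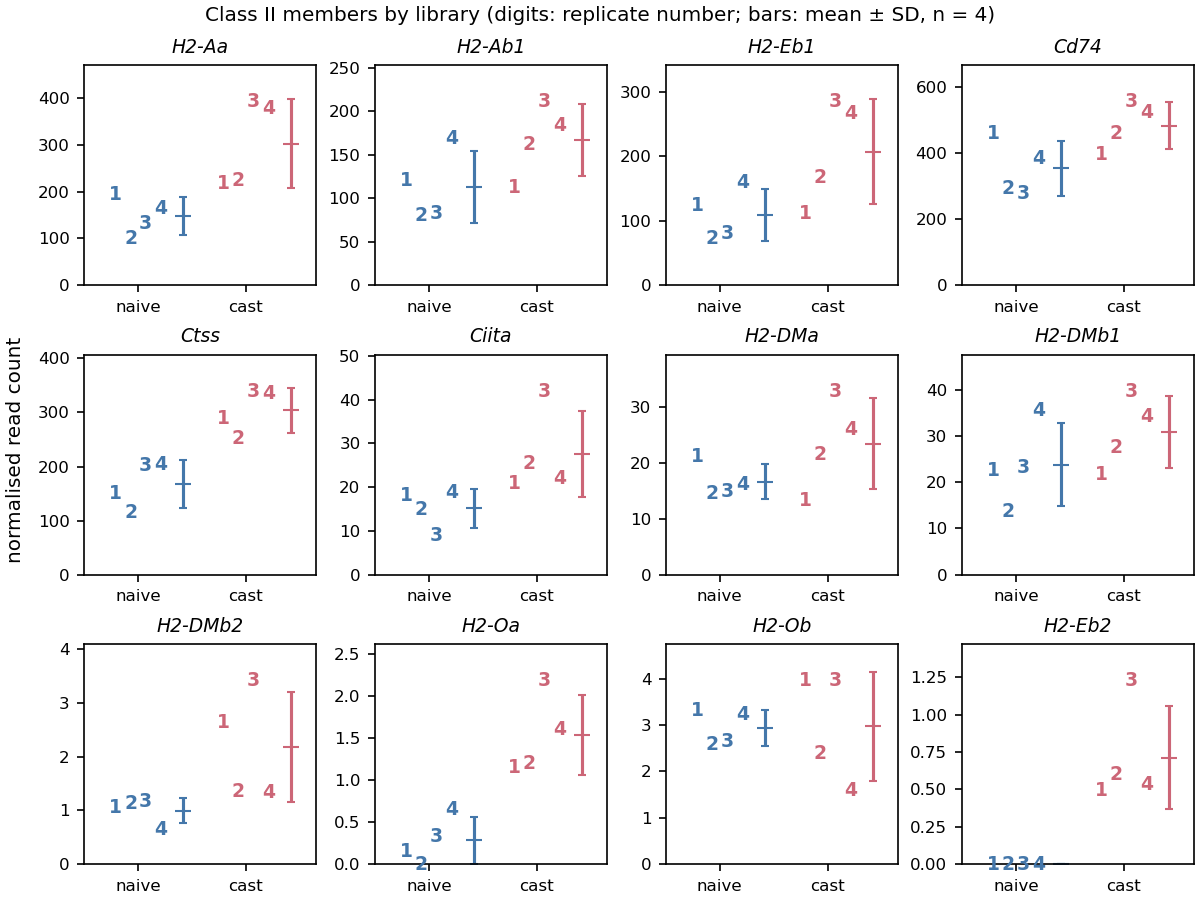
Normalised read counts (vertical axes, each from 0) of the 12 class II genes in the naive and cast libraries; each digit is 1 library, named by its replicate number, and bars show the mean ± SD over 4 libraries. H2-Aa, Ctss, Ciita, H2-DMb2, H2-Oa and H2-Eb2 had all cast libraries above all naive ones, and cast replicate 3 was the highest cast library for 10 of the 11 tested genes.

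Ctss, cathepsin S, is the protease that trims the invariant chain in macrophages and dendritic cells. It was at 150, 114, 203 and 204 in the naive and at 289, 253, 339 and 336 in the cast libraries. The groups did not overlap, and the lowest cast library was above the highest naive one by more than the SD of either group (44 and 41). The log2 difference was 0.88 ± 0.22 (SE), with an adjusted p of 0.0310 by limma, and 0.99 with an adjusted p of 0.0109 without naive replicate 4. It was lost without naive replicate 1 (adjusted p = 0.0743) or 2 (0.0782), or without cast replicate 1 (0.0553), 3 (0.0967) or 4 (0.0736). Cd74, the invariant chain, was at 457, 291, 278 and 384 in the naive and at 395, 459, 554 and 522 in the cast libraries. Naive replicate 1 was above cast replicate 1 and close to cast replicate 2. Its log2 difference of 0.47 ± 0.21 (SE) did not pass the test (adjusted p = 0.198 by limma, 0.119 without naive replicate 4). The ratio of H2-Aa to Cd74 ranged from 0.35 to 0.47 in naive and from 0.49 to 0.73 in cast capsules, without overlap. The margin was narrow, with 0.471 in naive replicate 3 and 0.487 in cast replicate 2. This ratio was singled out among several, most of which overlapped, and was not tested.

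Ciita, the transactivator that class II transcription depends on, was at 18.1, 14.8, 8.93 and 18.8 in the naive and at 20.8, 25.5, 41.9 and 22.01 in the cast libraries. The groups did not overlap, but cast replicates 1 and 4 were close to the higher naive libraries and cast replicate 3 was far above the rest. The log2 difference of 0.82 ± 0.29 (SE) did not pass the limma test (adjusted p = 0.105, and 0.0549 without naive replicate 4). On the recovered reads of all 8 libraries DESeq2 called Ciita higher (adjusted p = 0.0492) and edgeR did not (adjusted p = 0.0742).

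H2-DMa and H2-DMb1 form the molecule that swaps the invariant chain fragment for a peptide. H2-DMa was at 21.3, 14.5, 14.9 and 16.2 in the naive and at 13.4, 21.6, 32.9 and 26.0 in the cast libraries. H2-DMb1 was at 22.6, 13.7, 23.3 and 35.6 in the naive and at 21.8, 27.6, 39.7 and 34.1 in the cast libraries. Both overlapped between groups, with log2 differences of 0.41 ± 0.27 and 0.40 ± 0.29 (SE) and adjusted p of 0.376 and 0.434 (limma). Without naive replicate 4 the differences were 0.40 and 0.61, and without cast replicate 1 they were 0.65 and 0.55, none past the threshold. The second beta chain gene, H2-DMb2, was at 0.65 to 1.16 in the naive and at 1.33 to 3.41 in the cast libraries, with no overlap and an adjusted p of 0.171 (0.206 without naive replicate 4). Of the stretches of 100 bases in its exons, 12.9% also occur in H2-DMb1, so reads between these genes could be split uncertainly. The sum of both was 14.8 to 36.2 in the naive and 24.4 to 43.1 in the cast libraries, and overlapped.

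H2-Oa and H2-Ob form H2-O, which holds H2-DM in check and is known mainly from B cells and some dendritic cells. H2-Oa was low, at 0.15, 0, 0.33 and 0.65 in the naive and at 1.15, 1.199, 2.18 and 1.60 in the cast libraries. No naive library reached the lowest cast one. These values rest on 4 reads in all naive and 43 in all cast libraries. Reads pooled over each group and scaled by the library factors gave a ratio of 7.96, with a 95% interval of 2.89 to 30.6 that covers counting error only. Pooling gives little weight to the shallow naive replicate 4, which had the highest naive value. The mean normalised values of H2-Oa were 0.28 in the naive and 1.53 in the cast libraries. The log2(value + 1) difference, which understates the change of low genes, was 0.99 ± 0.24 (SE), with an adjusted p of 0.0284 by limma and 0.0107 without naive replicate 4. It was lost without naive replicate 1 (adjusted p = 0.0679), 2 (0.0840) or 3 (0.0641), or without cast replicate 2 (0.0547), 3 (0.0891) or 4 (0.0634). Its partner H2-Ob was at 3.32, 2.58, 2.65 and 3.23 in the naive and at 3.96, 2.40, 3.95 and 1.60 in the cast libraries, a log2 difference of -0.03 ± 0.26 (SE), and 0.00 without naive replicate 4. For H2-Ob the cast libraries lay on both sides of the naive ones. H2-Eb2, a class II beta chain gene below the level for testing, had no read in the naive and 20 reads in the cast libraries, spread over all 4. Taking 3 reads as the most that 0 reads in the pooled naive libraries allow, and the 20 cast reads as exact, the ratio was 4.94 or more. This figure leaves out counting error in the cast reads and the spread between libraries.

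None of the 26 class I genes tested passed the threshold with all 8 libraries, against 12.0% of all genes called in either direction by limma. At an unadjusted p under 0.05 there were 4 of 26, with Tap1, H2-Q8 and H2-M9 higher and H2-K2, a neighbour of H2-K1 annotated as a pseudogene, lower (-0.68 ± 0.29, SE), against 26.6% of all genes. On the reads recovered from the table, edgeR called 0 of 26 and DESeq2 called 1, H2-M9, against 13.5% and 18.2% of all genes. The fitted log2 difference was positive in 12 of 26, with a median of -0.07 and a range of -0.68 to 1.58. With naive replicate 4 left out it was positive in 17 of 26, with a median of 0.11, and limma called 1, Tap1, higher, against 17.7% of all genes called. H2-Q8 was the one class I gene whose groups did not overlap, against 20.5% of all genes tested. Tap1 joined it when naive replicate 4 was left out, against 30.6%. The lowest cast library was replicate 1 for 20 of 26 class I genes (33.5% of all genes), and the highest naive library was replicate 4 for 16 of 26 (37.4% of all genes). With both of these left out, limma called 5 of 26 higher (Nlrc5, Psmb8, Psmb9, Psmb10 and Tap1), against 11.4% of all genes. The median was 0.30. These 2 libraries were the ones that most often opposed a class I rise, so leaving both out raises the differences in itself. The 5 calls are therefore no test of a class I rise.

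H2-K1 and H2-D1 encode the classical heavy chains K and D. H2-K1 was at 411, 391, 387 and 559 in the naive and at 236, 443, 470 and 506 in the cast libraries. Naive replicate 4 was the highest of the 8 and cast replicate 1 the lowest. Its log2 difference was -0.12 ± 0.27 (SE), with an adjusted p of 0.809, and it was 0.00 without naive replicate 4 and 0.13 without cast replicate 1. H2-D1 was at 586, 668, 634 and 970 in the naive and at 420, 739, 627 and 695 in the cast libraries. The same libraries were highest and lowest, and the difference was -0.21 ± 0.25 (SE), with an adjusted p of 0.641 by limma, and -0.05 without naive replicate 4 or -0.03 without cast replicate 1. B2m, the light chain shared by all these heavy chains, was at 714, 522, 707 and 403 in the naive and at 465, 671, 776 and 963 in the cast libraries. For B2m naive replicate 4 was the lowest library, unlike for H2-K1 and H2-D1. Its difference was 0.28 ± 0.28 (SE), with an adjusted p of 0.567, and 0.12 without naive replicate 4 or 0.48 without cast replicate 1.

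**Figure D2:**
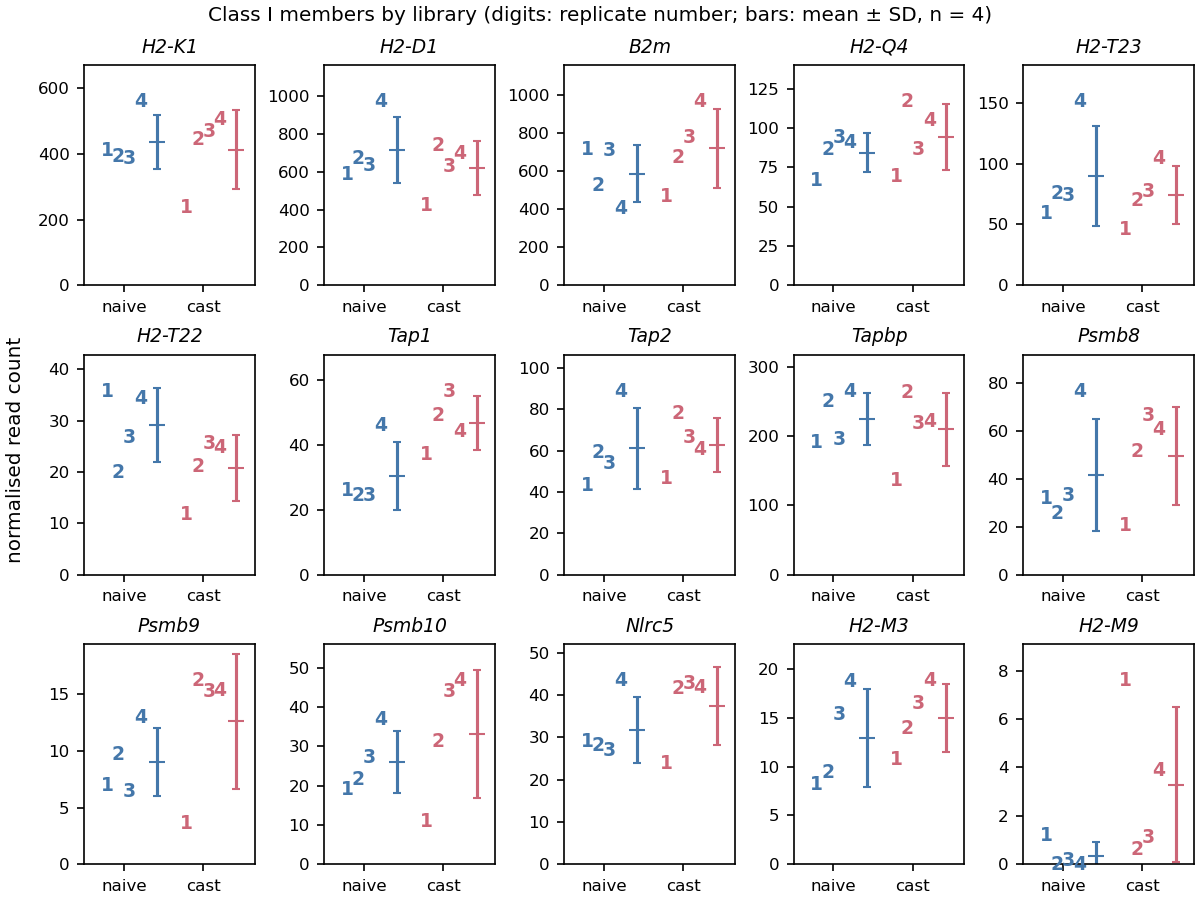
Normalised read counts (vertical axes, each from 0) of 15 class I genes in the naive and cast libraries; each digit is 1 library, named by its replicate number, and bars show the mean ± SD over 4 libraries. Naive replicate 4 stands above the other naive libraries for H2-K1, H2-D1, H2-T23, Tap1, Psmb8 and Nlrc5, and cast replicate 1 stands below the other cast libraries for H2-K1, the 3 Psmb genes and Nlrc5.

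TAP1 and TAP2 form the peptide pump, and tapasin, from Tapbp, bridges it to the heavy chain. Tap1 was at 26.1, 24.5, 24.5 and 45.9 in the naive and at 36.9, 49.2, 56.5 and 44.1 in the cast libraries. Naive replicates 1 to 3 were below every cast library and naive replicate 4 lay among them. The log2 difference was 0.64 ± 0.24 (SE), with an adjusted p of 0.116 by limma, and 0.86 ± 0.16 with an adjusted p of 0.00694 without naive replicate 4. In the annotation Tap1 overlaps Psmb9 at their starts on opposite strands (chr17:34187553-34197225 and chr17:34181987-34187764), and whether reads were counted by strand is not given in the sources used here. Tap2 was at 43.3, 59.0, 53.6 and 88.6 in the naive and at 46.5, 77.9, 66.1 and 60.4 in the cast libraries, a difference of 0.06 ± 0.24 (SE), and 0.26 without naive replicate 4. Tapbp was at 190, 250, 195 and 265 in the naive and at 136, 263, 218 and 222 in the cast libraries, a difference of -0.13 ± 0.23 (SE), and -0.04 without naive replicate 4. Neither passed the test in either fit. The ratio of Tap1 to Tap2 was 0.60, 0.42, 0.46 and 0.52 in naive replicates 1 to 4 and 0.79, 0.63, 0.85 and 0.73 in cast replicates 1 to 4. This ratio did not overlap between groups, with naive replicate 4 within the naive range. It was picked out after its values were seen and was not tested.

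Psmb8, Psmb9 and Psmb10 are the immunoproteasome subunits that take the place of Psmb5, Psmb6 and Psmb7. Psmb8 was at 31.6, 25.5, 33.1 and 76.3 in the naive and at 20.3, 51.1, 66.1 and 60.6 in the cast libraries. Psmb9 was at 6.93, 9.68, 6.45 and 12.9 in the naive and at 3.63, 16.2, 15.3 and 15.3 in the cast libraries. Psmb10 was at 19.1, 21.5, 27.1 and 36.9 in the naive and at 10.9, 31.3, 44.0 and 46.7 in the cast libraries. For all 3 genes cast replicate 1 was the lowest of the 8 libraries and naive replicate 4 the highest naive one, so the groups overlapped. The log2 differences were 0.25, 0.32 and 0.19, with SE of 0.42 to 0.43 and adjusted p of 0.743, 0.683 and 0.807 (limma). They were 0.58, 0.49 and 0.37 without naive replicate 4, and 0.63, 0.78 and 0.64 without cast replicate 1, again not past the threshold. Nlrc5, the class I transactivator, was at 28.9, 28.1, 26.8 and 43.3 in the naive and at 23.7, 41.7, 42.7 and 41.7 in the cast libraries. The same libraries stood apart from their groups, and the difference was 0.22 ± 0.24 (SE), with an adjusted p of 0.610, and 0.37 without naive replicate 4 or 0.42 without cast replicate 1.

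None of the non-classical heavy chain genes of the Q, T and M regions passed the limma test over 8 libraries. H2-Q4 was at 66.5 to 93.9 in the naive and 68.9 to 117 in the cast libraries. H2-T23, which encodes Qa-1, a ligand of receptors on natural killer cells, was at 59.1 to 151 in the naive and 46.2 to 104 in the cast libraries. H2-M3, which presents peptides that begin with formylmethionine, was at 8.14 to 18.8 and 10.7 to 18.8. Q region genes are near copies of each other. Between 10.8% and 13.5% of the 100-base stretches of H2-Q5, H2-Q6 and H2-Q7 occur in another gene, so their values are uncertain one by one. H2-Q6 was listed at 3.23 and 3.88 in naive replicates 2 and 4 and at 0 in naive replicates 1 and 3. H2-Q8 was at 0 in naive replicates 2 and 4 and at 3.01 and 3.14 in naive replicates 1 and 3, and at 3.79, 3.90, 8.04 and 5.34 in the cast libraries (log2 difference 1.58 ± 0.52, SE, adjusted p = 0.0818, and 1.25 with an adjusted p of 0.109 without naive replicate 4). The sum of H2-Q6 to H2-Q9 was 11.3 to 23.9 in the naive and 12.4 to 21.4 in the cast libraries, so that the separation seen for H2-Q8 alone was not seen for the sum. H2-M9 was at 1.21, 0, 0.17 and 0 in the naive and at 7.58, 0.60, 1.09 and 3.87 in the cast libraries. It rested on 9 naive and 87 cast reads, with a log2 difference of 1.44 ± 0.52 (SE) and an adjusted p of 0.109 by limma (1.33 and 0.133 without naive replicate 4). With a naive mean of 0.34, H2-M9 passed the 0.5 level for testing only through the cast libraries. H2-Ke6, of neither class, was at 15.5 to 33.0 in the naive and 8.24 to 19.7 in the cast libraries and did not pass (adjusted p = 0.289). It shares 92.0% of its 100-base stretches with Gm20427.

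**Figure D3:**
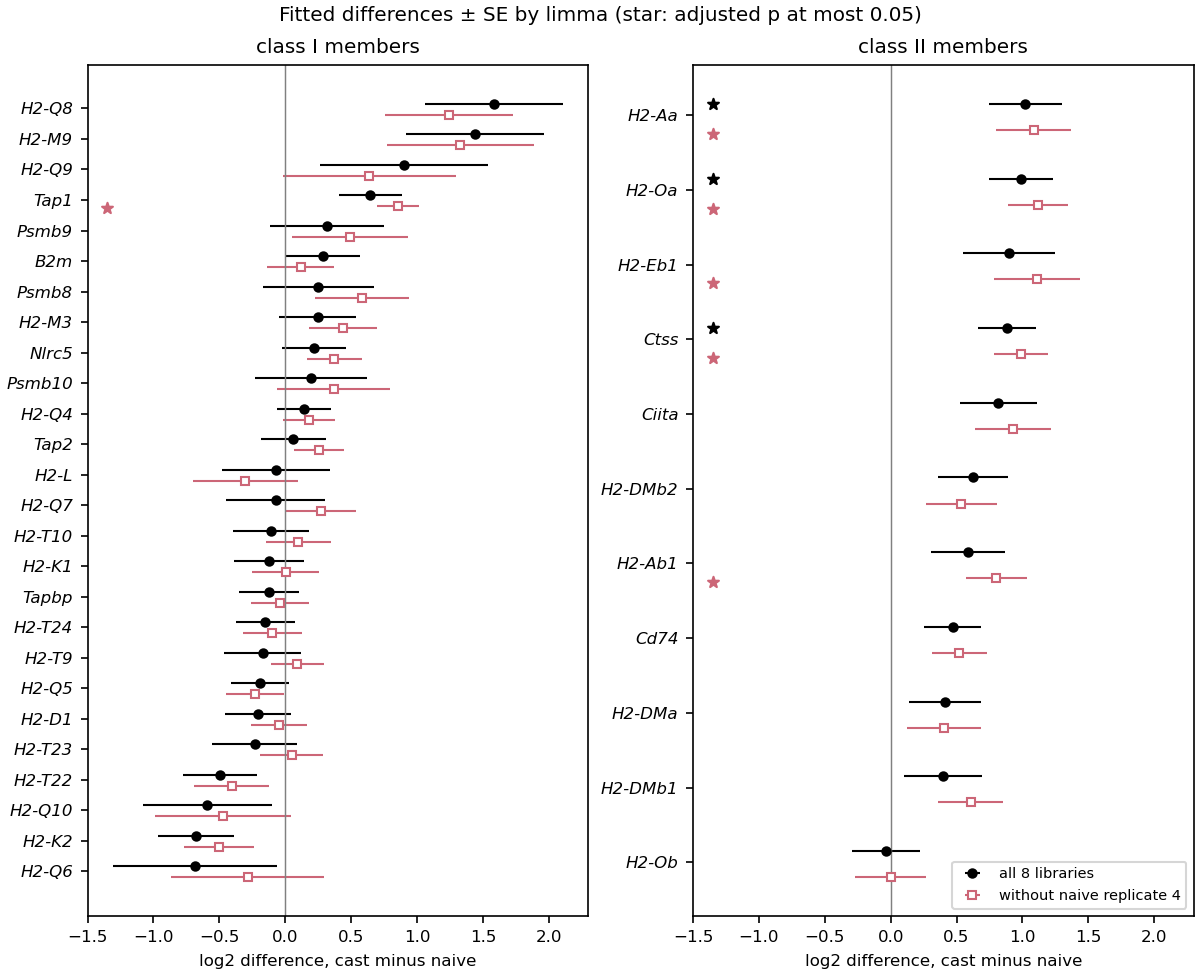
Fitted log2 differences, cast minus naive, of log2(value + 1) for the 26 class I and 11 class II genes tested, with SE bars; filled circles are all 8 libraries, open squares leave out naive replicate 4, and stars mark an adjusted p of at most 0.05. Class I differences lie on both sides of 0 with a median of -0.07, and 10 of 11 class II differences are above 0 with a median of 0.62.

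The 2 classes are set side by side here, library by library. The mean log2 level of the 26 class I genes was 4.28, 4.18, 4.29 and 4.65 in naive replicates 1 to 4 and 3.997, 4.60, 4.60 and 4.58 in cast replicates 1 to 4. Naive replicate 4 was the highest of the 8 libraries and cast replicate 1 the lowest. The mean of the 11 class II genes was 4.93, 4.45, 4.62 and 5.05 in the naive and 5.12, 5.23, 5.82 and 5.45 in the cast libraries. All cast libraries were above all naive ones, by little between naive replicate 4 and cast replicate 1. Within a library the class II mean exceeded the class I mean by 0.65, 0.27, 0.34 and 0.39 in the naive and by 1.12, 0.64, 1.22 and 0.87 in the cast libraries. This gap was wider in 3 cast libraries than in any naive one, and in cast replicate 2 it was just under that of naive replicate 1. These are descriptions of the chosen genes, with no test. The class II mean includes H2-Oa and the class I mean H2-M9, which passed the 0.5 level for testing only through the cast libraries. The separation of the class II means thus depends in part on H2-Oa being high in cast capsules. Cast replicate 3 was the highest cast library for 10 of 11 class II genes and for 7 of 26 class I genes, against 19.8% of all genes.

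**Figure D4:**
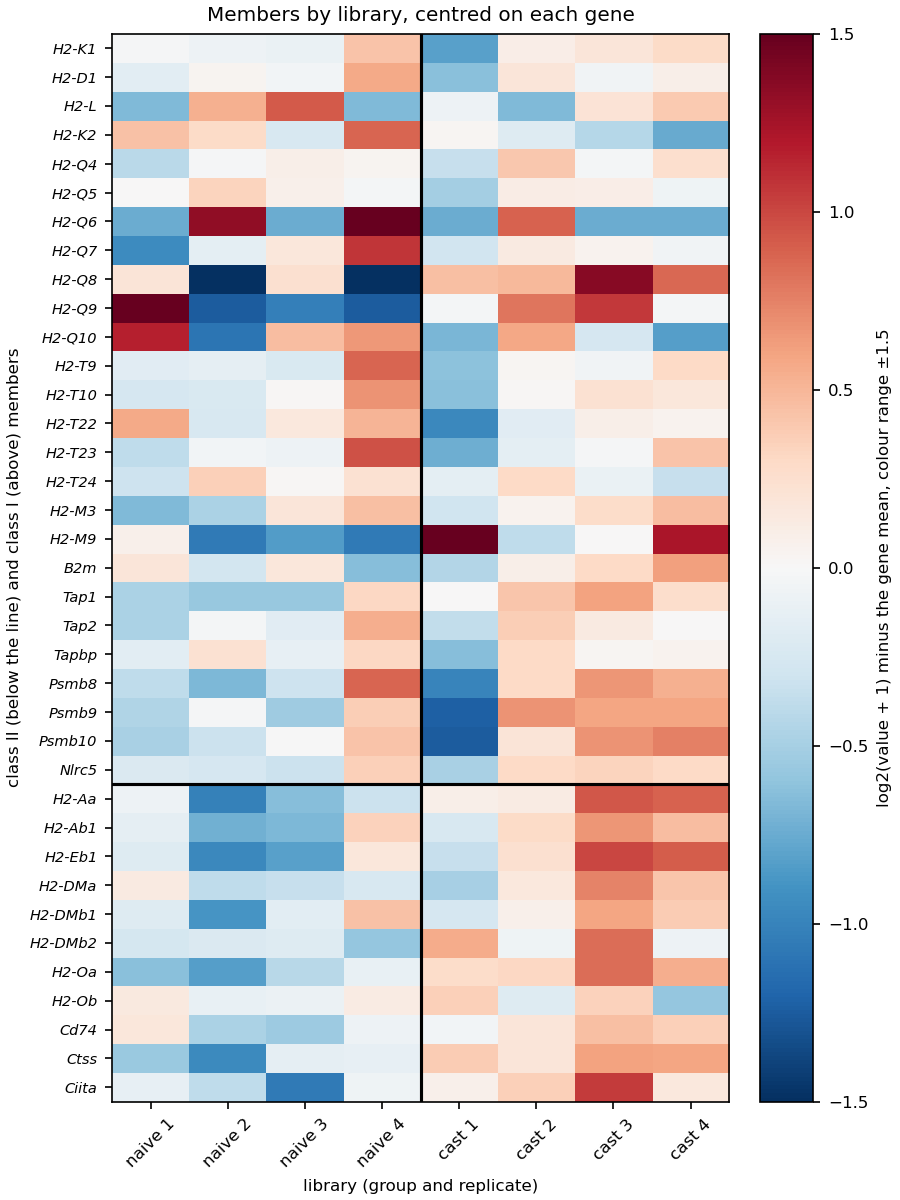
Log2(value + 1) of each tested gene minus its mean over the 8 libraries (colour, cut at ±1.5; red high, blue low), with libraries in columns and class I genes above and class II genes under the horizontal line. The class I block is mostly red in naive replicate 4 and mostly blue in cast replicate 1, and the class II block is reddest in cast replicate 3.

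Per kilobase of annotated exon, B2m was the most abundant of the genes in both groups, at a level of 682 ± 176 normalised reads per kilobase in naive and 836 ± 242 in cast capsules (SD, n = 4). H2-D1 (340 ± 82.6) and H2-K1 (264 ± 49.5) followed in naive capsules, ahead of Cd74 (249 ± 59.4) and H2-Aa (131 ± 35.8). Of these, H2-K1 and Cd74 differed by less than their SD. In cast capsules the level of Cd74 (341 ± 49.7) came second, followed by H2-D1 (295 ± 67.1), H2-Aa (269 ± 84.7) and H2-K1 (250 ± 73.3). Each of these neighbours differed by less than the SD of the lower one. The other I-A chain, H2-Ab1, was at 93.3 and 138, and Ctss at 124 and 224. The transactivators were far lower, with Nlrc5 at 3.91 and 4.61 and Ciita at 1.84 and 3.35.

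Other genes of the pathway were followed by lists. Of 8 endosomal processing genes tested, which cut antigens or act on class II molecules in endosomes, 3 rose and none fell, with a median log2 difference of 0.89, against 6.51% of all genes called higher. Lgmn, an asparaginyl endopeptidase, was at 193 to 366 in the naive and 476 to 674 in the cast libraries (1.17 ± 0.22, SE, adjusted p = 0.0107 by limma). Ctsl, cathepsin L, was at 294 to 466 and 594 to 903 (1.03 ± 0.22, adjusted p = 0.0175). March1, a ubiquitin ligase that removes class II molecules from the cell surface, was at 12.3 to 31.0 and 49.3 to 61.6 (1.31 ± 0.26, adjusted p = 0.0126). Ctsb and Ifi30, the reductase that opens disulphide bonds of antigens, also rose without naive replicate 4 (adjusted p = 0.0373 and 0.00947), 5 of 8 in all, against 9.15% of all genes. Of the 16 transcription factors and interferon gamma signalling genes tested, 2 rose and none fell, with a median of 0.16, against 6.51% of all genes called higher. They were Irf8, a factor of macrophages and dendritic cells, at 17.4 to 32.3 in the naive and 42.1 to 51.7 in the cast libraries (1.04 ± 0.20, adjusted p = 0.0119), and Socs1, a feedback inhibitor of interferon signalling (1.16 ± 0.30, adjusted p = 0.0375). Irf1 (0.26 ± 0.35) and Rfx5 (0.07 ± 0.16) did not pass. Ifngr2 and Jak2 also rose without naive replicate 4, 4 of 16 in all, against 9.15% of all genes.

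None of the 6 peptide loading and trimming genes (Calr, Canx, Pdia3, Erap1, Tapbpl, Hspa5) and none of the 5 proteasome genes (Psme1, Psme2, Psmb5, Psmb6, Psmb7) passed the limma test in either direction, with medians of 0.28 and 0.09. Of 6 class I-like genes outside the H2 region, Procr, the endothelial protein C receptor, fell by 1.23 on the log2 scale (adjusted p = 0.0151), and none rose. Among all genes tested, 5.46% were called lower. Of 5 costimulation genes tested none passed with all 8 libraries. Cd80, a ligand of CD28, fell without naive replicate 4 (adjusted p = 0.0162), against 17.7% of all genes called in either direction in that fit. Naive replicate 4 held the lowest value of Cd80, at 1.29 against 7.11 to 18.1 in the other naive libraries.

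Markers of the cells known to make class II molecules did not all move one way. Of 11 macrophage markers none passed with all 8 libraries, with a median of 0.25. The summed level of the list was 2836 to 5970 in the naive and 4484 to 6467 in the cast libraries, and overlapped. The overlap came from naive replicate 4 alone (5970). Naive replicates 1 to 3, at 4005, 2836 and 3916, were below every cast library. Cd68, Lyz2 and Fcgr1 rose without naive replicate 4 (3 of 11, against 9.15% of all genes called higher). Of 10 dendritic cell markers Flt3 and Ccr7 rose (1.70 ± 0.37 and 1.57 ± 0.29, SE, adjusted p = 0.0171 and 0.00962 by limma) and Siglech, of plasmacytoid cells, fell by 1.29 on the log2 scale (adjusted p = 0.0145). Among all genes tested, 6.51% were called higher and 5.46% lower. The summed dendritic list was 92.9 to 123 in the naive and 75.2 to 104 in the cast libraries, while its mean log2 level was 2.77 ± 0.14 and 2.94 ± 0.16 (SD, n = 4), and Zbtb46 did not pass. None of 7 B cell markers passed, and their summed level was 5.43 to 16.8 in the naive and 3.60 to 14.6 in the cast libraries. Ms4a1, Blk and Cr2 were at 0 in naive replicate 4, and Blk also in naive replicate 2. Pax5 was at 0 in naive replicate 1 and cast replicate 4. Blk, with a naive mean of 0.43, reached the 0.5 level for testing only through the cast libraries.

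The pan-leukocyte genes Ptprc (1.80 ± 0.36, SE) and Coro1a (1.69 ± 0.28) rose, 2 of 3, with a summed level of 263 to 297 in the naive and 488 to 814 in the cast libraries. This count and those of the markers below stand against 6.51% of all genes called higher and 5.46% called lower. T and natural killer cell markers, the cells that read class II and class I molecules, rose in 4 of 6 tested (Cd3e, Cd4, Cd8a and Klrb1c), from a summed level of 2.32 to 3.88 to one of 20.1 to 30.7. Of the tested genes, Cd3e, Cd3g, Klrb1c and Ncr1 had naive means of 0.04 to 0.23. These genes passed the 0.5 level for testing only through the cast libraries. Neutrophil markers rose in 6 of 6, from a summed level of 22.5 to 45.3 to one of 639 to 3450. Of 5 marrow precursor markers Prtn3 rose. The summed level of the 5 was 3.64 to 12.3 in the naive libraries. It was 97.9 and 262 in cast replicates 1 and 2 and 8.18 and 12.5 in cast replicates 3 and 4. Elane and Ms4a3, with naive means of 0.20 and 0, passed the 0.5 level for testing only through the cast libraries. The 10 erythroid genes summed to 1728 to 2986 in the naive and 6055 to 29730 in the cast libraries, without overlap. None of 6 endothelial markers passed. Skeletal muscle genes fell in 4 of 10, and in 10 of 10 without naive replicate 4, from a summed level of 108 to 2808 to one of 14.1 to 388. Without that library 17.7% of all genes were called in either direction. When the muscle level was put into the fit as a covariate, no class II gene was called and the class II median was 0.23, and the class I median was -0.69. That limma fit called 3903 genes in all. At an unadjusted p under 0.05 it had 0 of 11 class II genes, against 41.1% of all genes. The mean log2 muscle level was 6.84 to 7.65 in naive replicates 1 to 3 and 1.16 to 4.48 in the cast libraries. Only naive replicate 4, at 3.06, lay within the cast range. The muscle level thus largely followed group, so this fit cannot separate it from the cast. The pathway and marker genes named as called with all 8 libraries were also called without naive replicate 4. The part of leukocytes, blood and marrow in the class II values was not tested.

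**Figure D5:**
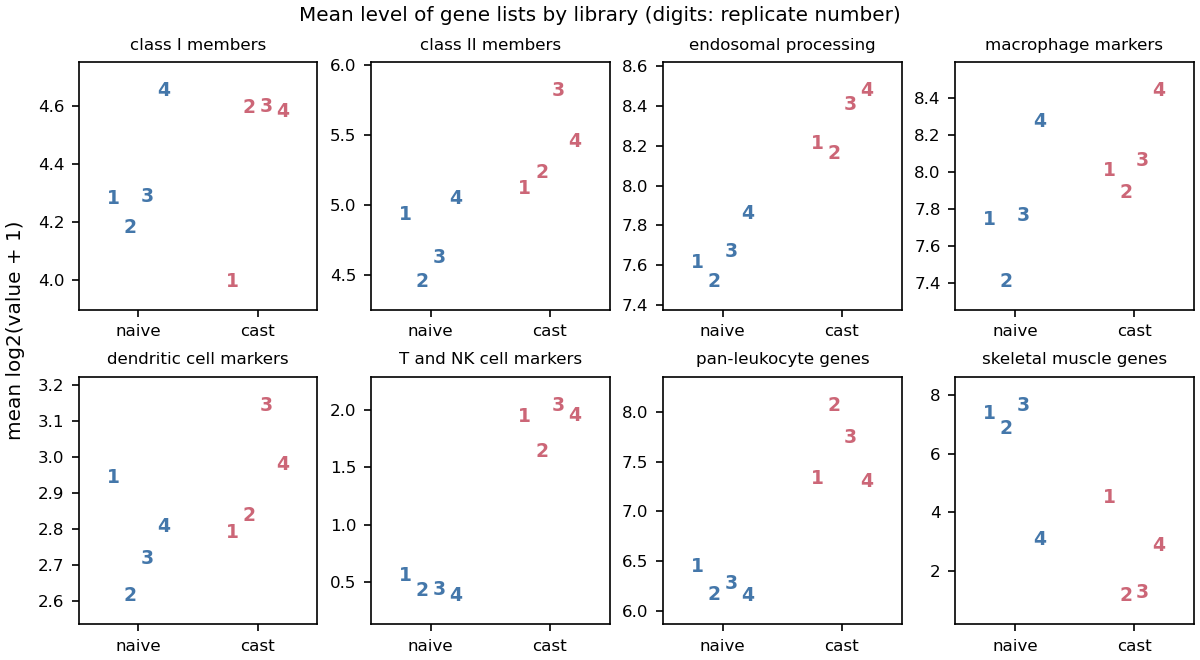
Mean log2(value + 1) of the tested class I and class II genes, of the endosomal processing genes and of 5 lists of cell type markers in each library; each digit is 1 library, named by its replicate number, and each panel has its own vertical range that does not start at 0. Class II, endosomal, T and natural killer cell and pan-leukocyte levels did not overlap between groups. Class I, macrophage, dendritic cell and muscle levels did, for macrophage and muscle genes through naive replicate 4 alone. The class II level includes H2-Oa, and the T and natural killer cell level Cd3e, Cd3g, Klrb1c and Ncr1, all tested only through the cast libraries.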

How the data were processed

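Posterior knee capsules, 4 naive and 4 cast samples, were sequenced as rRNA-depleted, directional libraries (paired reads of 150 nt), per the labels' protocols. The deposited signal values are read counts per gene that the authors divided by a factor for each library. Trimming with Trimmomatic, counting with RSEM over Bowtie2, edgeR and the build mm10 are listed, per the submitters' processing notes. The labels' protocol names another build, and the annotation, strand setting and normalisation step were not given in the sources read. Whole reads were recovered from the steps between values, and 100% of values came out whole within 0.01 of a read.

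Genes with a mean of at least 0.5 (15120 of 16464) were tested with limma 3.58.1 (trend) on log2(value + 1), cast against naive over all 8 libraries, with Benjamini-Hochberg adjustment over all genes tested and a threshold of 0.05. On the recovered reads edgeR 4.0.16 (quasi-likelihood) called 2039 genes and DESeq2 1.42.0 called 2754, against 1810 by limma. Alternatives were the pseudocount, the filter, scaling, thinning, weights, a muscle covariate, the replicate block and leaving out libraries. The main limma fit and the edgeR and DESeq2 fits over all 8 libraries were also run on simulated data, and the alternatives just listed were not. The members and gene lists were chosen with earlier results of these data known. Genes given in full were those past the threshold with or without naive replicate 4 and a fixed panel of 18 main presentation genes, and others were named where singled out. Coordinates and exon lengths are from the GENCODE annotation of GRCm38 and promoters from RefSeq. H2-L, H2-Q8, H2-Q9 and H2-T9 had no match there and have no length. Depth limits low genes: a read is worth 0.13 to 0.17 in 7 libraries and 0.65 in naive replicate 4. Intervals cover counting error only, and floors cover that of the naive reads only.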

Additional observations from a re-analysis of the deposited data

Results flagged for a closer look

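In 8 of 74 groups of 4 libraries (10.8%), 1 library lay far from the other 3, by a gap to its nearest neighbour that passed Dixon's 95% critical value, where chance gives about 5%. All 8 were class I genes. The 74 groups come from the same 8 libraries and are not independent, so the 5% is no test of this count. Naive replicate 4 held 4 of the flagged values and cast replicate 1 held 2. In naive replicate 4, H2-K1 was at 558.9 against 386.7 to 410.5 in the other naive libraries. H2-T9 was at 75.68 there against 34.72 to 36.94, Tap1 at 45.93 against 24.47 to 26.07 and Nlrc5 at 43.34 against 26.79 to 28.93. In cast replicate 1, Psmb9 was at 3.626 against 15.27 to 16.19 in the other cast libraries, and Nlrc5 at 23.73 against 41.66 to 42.68. The other flagged genes were near copies of the Q region. H2-Q6 was at 2.098 in cast replicate 2 and 0 in the other cast libraries, and H2-Q9 at 6.781 in naive replicate 1 against 0 to 0.165.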

How the results depend on the processing

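Of 26 alternatives, 2 were chosen after seeing the data (edgeR and DESeq2 without naive library 4). Over 518 values of 20 genes, 439 kept direction and side of the threshold, 25 lost a call, 31 gained one and 23 changed sign, all 23 without a call in either fit. Limma called 1810 genes, against 3985 with array weights, 3903 with the muscle covariate, 2754 with DESeq2, 715 without cast replicates 1 and 2, 3275 without naive replicate 4 and cast replicate 1, and 3310 with DESeq2 without naive library 4. Leaving out 1 library gave 920 to 2672. Class I calls, 0 with all libraries, were 3 with array weights, 4 with the muscle covariate (H2-M9 and H2-Q8 higher, H2-T23 and H2-T9 lower), 1 with DESeq2, 5 without naive replicate 4 and cast replicate 1, 1 and 2 with edgeR and DESeq2 without naive library 4, and 0 to 1 without 1 library (H2-Q9 without naive replicate 1, Tap1 without naive replicate 4). Class II calls, 3 with all libraries, were 8 with array weights, 0 with the muscle covariate, 1 with reads thinned to the shallowest library, 1 without cast replicates 1 and 2, and 7 without naive replicate 4 and cast replicate 1. They were 5 and 6 with edgeR and DESeq2 without naive library 4, and 0 to 5 without 1 library (0 without naive replicate 2, cast replicate 3 or cast replicate 4). The class I median became 0.19 with array weights, 0.30 without naive replicate 4 and cast replicate 1, and -0.69 with the muscle covariate. The class II median became 0.92, 0.98 and 0.23 under these settings in turn, and 0.97 and 0.96 with edgeR and DESeq2 without naive library 4. The cause of these shifts was not tested. Leaving out naive replicate 4 and cast replicate 1 removes the libraries that most often opposed a rise in both classes, which raises the differences in itself. The muscle level largely followed group, so the fit with this covariate cannot separate it from the cast.

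With array weights the log2 difference became 0.14 for H2-K1, 0.030 for H2-D1 and 0.088 for Tapbp. Without naive replicate 4 and cast replicate 1 it became 0.25, 0.13 and 0.15. H2-K1 was at 0.17 without cast replicates 1 and 2, and at 0.071 and 0.057 with edgeR and DESeq2 without naive library 4. With the muscle covariate it became -0.038 for Tap1, -0.64 for Tap2, -1.002 for Psmb8, -0.80 for Psmb9, -0.77 for Psmb10, -0.43 for Nlrc5, -0.15 for H2-Ab1 and -0.23 for H2-DMb1. Leaving out 1 library gave -0.24 to 0.13 for H2-K1, -0.084 to 0.26 for Tap2, -0.25 to 0.068 for Tapbp and -0.027 to 0.64 for Psmb10. Same-numbered naive and cast libraries did not deviate together (correlation -0.06 to 0.08, 0 of 4 pairs over 0.1). With 4 libraries a group this cannot show whether the numbers mark a shared day or animal, which the labels do not state. With the replicate block 1371 genes were called, class II calls were 2 and the adjusted p of H2-Aa was 0.0581. H2-Aa and H2-Oa lost their calls with thinned reads (adjusted p = 0.0745 and 0.209), and H2-Oa, H2-M9, H2-L, H2-DMb2, H2-M2, H2-M10.2 and H2-Eb2 rest on 9 to 96 reads over all libraries.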
